A study of Mus musculus with 6 samples.

Results

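Retinoid metabolism and receptor target genes were examined in CD4+ T cells of the mouse, lymphocytes that help other immune cells. The 9 genes were Cyp26b1, Dhrs3, Rdh10, Rdh11, Rara, Rarg, Hic1, Tgm2 and Asb2, out of 18193 genes named on the array. All probe sets (groups of oligonucleotides that together measure 1 transcript) were taken whose platform annotation gives 1 of these symbols and no other, which gave 17 probe sets of 45101. The series asks which T cell genes retinoic acid regulates. Cells came from spleen, peripheral and mesenteric lymph nodes, and total RNA was hybridised to 6 arrays, 2 in each of the groups labelled Control, RA and Ro. The title of the series names retinoic acid, for which RA is taken to stand, while Ro is given without an explanation. For the RA and Ro arrays the strain, genotype, age, dose and time are not given in the labels used here. For Control replicate 2 alone the label lists a culture of 5 days with hIL-2, hTGF-b1, mIL-6, mIL-1b, mIL-23, mIL-21 and mTNF-a plus anti-mIL-4 and anti-mIFN-gamma antibodies, and the sources used here do not say whether Control replicate 1, RA or Ro received any of these.

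Cells make retinoic acid from retinol (vitamin A) in successive oxidations, the first by retinol dehydrogenases such as that of Rdh10 and the next by retinaldehyde dehydrogenases. The enzyme of Dhrs3 runs the first step backwards, and the cytochromes of the Cyp26 family degrade retinoic acid, so both lower its level. Retinoic acid acts through the retinoic acid receptors, encoded by Rara, Rarb and Rarg, which pair with retinoid X receptors on repeated short DNA half-sites near target genes. In T cells of the gut and its draining lymph nodes, retinoic acid is known for inducing receptors that direct cells to the small intestine, and Cyp26b1 is a target that feeds back on the signal.

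Control replicate 2 stood apart from the other arrays. Its log2 values correlated with theirs at 0.911 to 0.917 across probe sets, whereas the other 5 arrays correlated among themselves at 0.961 to 0.972. Markers bore out the label of T cells on every array: the summed signal of 9 T cell markers measured of 10 ran from 29546 to 38725 arbitrary units, and Cd4 had signals of 1476 and 463 in Control, 1308 and 1141 in RA and 1387 and 1791 in Ro. Markers of other cells were measured too. The sum of 8 mast cell and basophil markers of 8 was 3914 and 163 on the Control arrays, 1603 and 1369 in RA, and 5961 and 3825 in Ro, so that Control replicate 1 lay within the range of Ro. On Control replicate 2 most of that sum was Kit, at 120, its highest array, and each other marker was at 15.6 or less. The sum of 9 macrophage and dendritic cell markers of 10 was 1706 and 184 in Control, 516 and 493 in RA and 1057 and 411 in Ro. Most of it was Lyz2 on Control replicate 1 (1287) and Ro replicate 1 (622). Other markers of this list went other ways: Csf1r ran only from 54.8 to 78.6, Itgax was highest on Control replicate 2 (30.1) and Flt3 in RA (21.7 and 20.1). Of 3 NK cell markers 2 were on the array, and their sum (244 and 2069 in Control, 231 and 331 in RA, 896 and 573 in Ro) was nearly all Klrd1, while Ncr1 was below the filter at 7.38 to 11.9. The sum of 2 CD8 markers of 2 was 135 and 322 in Control, 58.9 and 93.1 for RA, and 139 and 187 for Ro. The 2 markers differed on Control replicate 2, where Cd8a was 237 against 4.29 to 23.2 on the other arrays. Cd8b1 was 85.0 there, against 54.6 to 164 on the others. B cell markers (4 of 5) summed to between 51.4 and 109 on all arrays. Of 5 stromal and endothelial markers Col1a1, Col3a1, Pdgfrb and Cdh5 were below the filter, at 15.4 or less, and their sum (620 and 64.9 in Control, 402 and 712 for RA, 816 and 1007 for Ro) was nearly all Pecam1, which leukocytes also express. The part of these cells in the differences below was not tested, and in bulk RNA fewer cells of a type and less RNA per cell cannot be told apart.

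Windows around listed starts of the 4 genes whose RA and Ro signals differed at least 2-fold without overlap (below) are shown first, since response elements of retinoic acid receptors would be sought there. Each is the 250 bases before a transcript start, read on the strand of the gene, from a RefSeq table of promoter windows on GRCm38.p6; of several starts in that table the one farthest 5′ was taken. For Hic1 and Rarg this start is the 5′ end of the RefSeq gene. For Cyp26b1 it lies 98 bases inside the gene, so that 98 of the 250 bases are within it, and for Dhrs3 it lies 293 bases inside, so that all 250 are within the gene and the bases before its 5′ end were not searched. Capitals mark a receptor half-site on either strand, that is AGGTCA, the variant AGTTCA, the variant GGGTCA or the variant GGTTCA, or a reverse complement of these.
Cyp26b1: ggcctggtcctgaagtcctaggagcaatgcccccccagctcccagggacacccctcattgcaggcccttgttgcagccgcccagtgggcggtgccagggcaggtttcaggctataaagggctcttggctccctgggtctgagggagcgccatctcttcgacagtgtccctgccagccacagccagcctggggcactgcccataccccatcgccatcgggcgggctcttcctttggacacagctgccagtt
Dhrs3: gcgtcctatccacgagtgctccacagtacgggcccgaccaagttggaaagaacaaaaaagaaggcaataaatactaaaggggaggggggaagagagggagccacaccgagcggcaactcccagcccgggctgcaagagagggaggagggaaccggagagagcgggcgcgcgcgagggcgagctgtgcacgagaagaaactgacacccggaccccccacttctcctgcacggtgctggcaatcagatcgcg
Hic1: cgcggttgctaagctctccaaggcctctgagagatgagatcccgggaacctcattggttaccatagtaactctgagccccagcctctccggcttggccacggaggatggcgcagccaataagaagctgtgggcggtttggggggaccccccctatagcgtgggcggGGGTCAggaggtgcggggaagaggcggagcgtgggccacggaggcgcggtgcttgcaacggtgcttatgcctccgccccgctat
Rarg: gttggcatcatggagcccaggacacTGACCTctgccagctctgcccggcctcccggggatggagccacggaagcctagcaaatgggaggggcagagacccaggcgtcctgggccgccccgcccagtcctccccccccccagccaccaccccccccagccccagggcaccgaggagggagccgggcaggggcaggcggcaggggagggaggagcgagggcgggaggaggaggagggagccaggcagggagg
These windows lie at chr6:84593811-84594060 (minus strand), chr4:144892577-144892826 (plus strand), chr11:75170256-75170505 (minus strand) and chr15:102257523-102257772 (minus strand). The windows printed for Cyp26b1 and Dhrs3 hold no half-site. That of Hic1 holds 1, which begins 84 bases before the start, and that of Rarg holds 1 on the opposite strand, beginning 225 bases before the start. Such matches are frequent: over windows of 300 bases (250 before to 50 after a start), 43.7% of all 32851 RefSeq windows hold a half-site, against 7 of the 16 windows of 7 member genes. RefSeq windows were not at hand for Rdh10 and Tgm2.

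The paired arrangement DR5, a direct repeat of half-sites with a spacer of 5 bases, was found in 0.0974% of all windows, DR2 in 0.268% and DR1 in 0.222%, and in 0 of the 16 windows of the members. The same search found DR5 in the windows of Rarb and Cyp26a1, known retinoic acid targets that are no members. They are given because they show what the search finds, with the half-sites in capitals.
Rarb: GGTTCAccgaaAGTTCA
Cyp26a1: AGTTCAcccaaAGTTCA
The first lies at chr14:16575513-16575529 and the second at chr19:37697776-37697792, both on the minus strand of GRCm38.p6. Both genes were dim here. The signal of Rarb lay between 0.308 and 4.71 on all 6 arrays, below the filter on dim probe sets, and that of Cyp26a1 was 15.7 and 20.2 in Control, 18.3 and 16.8 in RA and 12.3 and 12.8 in Ro. No match in a window says only that these letters are not in it.

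Cyp26b1, which degrades retinoic acid, had a signal of 87.1 and 115.5 on the RA arrays, 1.77 and 3.70 on the Ro arrays and 4.52 and 3.05 on the Control arrays. Both RA arrays lay far above the other 4, which were all below the filter level of their array (the 40th percentile of its signals), so Cyp26b1 entered the test through the RA arrays alone. RA averaged 101 ± 20.1 (SD, n = 2) against 2.74 ± 1.37 (SD, n = 2) for Ro, and the size of a ratio to so dim a signal is uncertain. Set against the mean filter level of the Ro arrays, the RA mean was 9.02-fold higher, and against that of the Control arrays 9.10-fold. Log2 differences here are of log2(signal + 2.999) and are given relative to the median of all probe sets tested, which itself lay at -0.21 for RA minus Ro, 0.09 for RA minus Control and 0.29 for Ro minus Control. Tests refer to the difference before that shift. The log2 difference of Cyp26b1 was 4.41 (SE 0.49) between RA and Ro, with an unadjusted p of 4.71e-05 and an adjusted p of 0.464 in limma over all 6 arrays.

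Because the RA arrays alone admitted Cyp26b1 to the test, a call on it is a description and no independent support. When the 2 Control arrays were left out of the fit, limma called it as higher in RA, at an adjusted p of 0.0433. That 4-array fit called 1 of the 9 genes and 12 of 27878 probe sets, or 0.043%. The call was lost in the 4-array fit without an intensity trend in the variance (adjusted p = 0.193 in limma). It was lost there without either RA array too, and kept without either Ro array. With 1 array left out, 1 of the 2 groups is a single array assumed to vary like the other, so these calls are no support. The log2 difference in these fits ran from 4.24 to 4.61. In the 6-array fit a call appeared when either Control array was left out, which leaves Control as a single array. With the replicate block the limma adjusted p was 0.00464 over the 4 arrays and 0.999 over the 6 arrays. Over all 23 settings tried the log2 difference ran from 2.58 to 5.03.

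Dhrs3 encodes a reductase acting on retinaldehyde. Its signal was 115 and 95.8 in RA, 14.4 and 17.0 in Ro and 75.5 and 19.0 in Control. The RA arrays were above all others, Control replicate 1 came closest to them, and Control replicate 2 stood near the Ro arrays. RA averaged 106 ± 13.8 (SD, n = 2) against 15.7 ± 1.82 (SD, n = 2) for Ro, a ratio of 6.71. The log2 difference of RA minus Ro was 2.75 (SE 0.62), which did not pass in limma over 6 arrays (adjusted p = 0.999) or over the 4 arrays (SE 0.32, adjusted p = 0.120). Without 1 array at a time the log2 difference in the 4-array fit ran from 2.55 to 2.95, where the group left with 1 array was assumed to vary like the other.

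The retinol dehydrogenase genes Rdh10 and Rdh11 had overlapping groups. Rdh10, whose enzyme starts retinoic acid synthesis, had a signal of 59.99 and 112 in RA, 96.5 and 129 in Ro and 115 and 64.5 in Control, with no group apart from the others. Its log2 difference of RA minus Ro was -0.22 (SE 0.49) on this probe set and 0.20 (SE 0.45) on its other one. The direction also turned, to 0.15, without RA replicate 1. Rdh11, which encodes an enzyme that reduces retinaldehyde, had 342 and 206 in RA, 351 and 239 in Ro and 295 and 173 in Control. In each group replicate 1 was the higher array, and the groups overlapped. The log2 difference of RA minus Ro was 0.09 (SE 0.46) and 0.17 (SE 0.48) on its 2 probe sets, and without 1 array at a time it ran from -0.33 to 0.52.

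**Figure D1:**
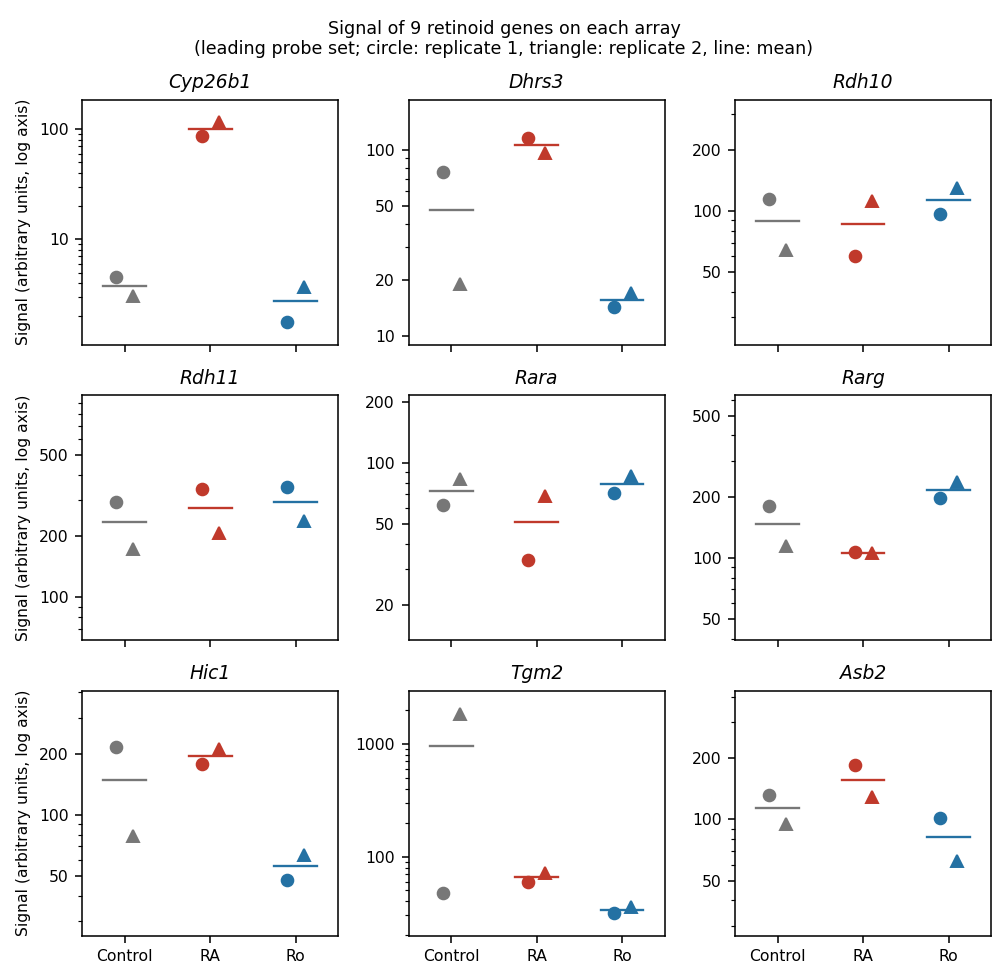
Signal of the leading probe set of each of the 9 genes in arbitrary units, with a log axis of its own for each gene; circles are replicate 1, triangles replicate 2 and lines the group means. Cyp26b1 is high on the RA arrays (87.1 and 115.5) and below 5 on the others, Dhrs3 and Hic1 are low in Ro and split between the Control arrays, and Tgm2 reaches 1857 on Control replicate 2.

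As deposited, the signals of the receptor genes Rarg and Rara were lower on both RA arrays than on both Ro arrays. The same held for 33.9% of all probe sets tested, or 18.4% with each array centred on its median. Rarg, encoding the gamma receptor, had a signal of 107 and 105 in RA, 197 and 236 in Ro and 181 and 114 in Control. Both RA arrays were below the other 4, and Control replicate 2 was close to them. RA averaged 106 ± 1.41 (SD, n = 2) against 217 ± 27.5 (SD, n = 2) for Ro, a Ro to RA ratio of 2.04, and its second probe set gave 2.32 with the same order of groups. The log2 difference of RA minus Ro was -0.79 (SE 0.40) relative to the median probe set, with an adjusted p of 0.999 in limma over 6 arrays and 0.663 over the 4 arrays. Over the 23 settings it stayed below 0, from -0.87 to -0.70, but with each array centred on its median the ratio no longer reached 2-fold.

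Rara, encoding the alpha receptor, had a signal of 33.4 and 68.9 in RA, 71.3 and 86.5 in Ro and 62.3 and 82.8 in Control. The higher RA array lay just under the lower Ro array and above the lower Control array. The log2 difference of RA minus Ro was -0.46 (SE 0.47, adjusted p = 0.999 in limma over 6 arrays), and it shrank to -0.03 without RA replicate 1.

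Among the target genes, Hic1, which encodes a zinc finger transcriptional repressor, had a signal of 179 and 212 in RA, 47.9 and 63.7 in Ro and 217 and 79.0 in Control. Both Ro arrays lay below the other 4. Control replicate 1 was at the level of RA, and Control replicate 2 was, as for Dhrs3, nearer to Ro. RA averaged 195 ± 23.3 (SD, n = 2) against 55.8 ± 11.1 (SD, n = 2) for Ro, a ratio of 3.499, with a log2 difference of 1.98 (SE 0.54, adjusted p = 0.999 in limma over 6 arrays). In the 4-array fit the SE was 0.30 and the adjusted p 0.340 in limma. Without 1 array at a time the log2 difference there ran from 1.86 to 2.13, with 1 group left as a single array.

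Asb2, encoding the substrate-binding subunit of a ubiquitin ligase that was found through its induction by retinoic acid in leukaemia cells, had a signal of 184 and 129 in RA, 102 and 62.5 in Ro and 132 and 94.5 in Control. The RA arrays were above the Ro arrays, and the Control arrays overlapped both groups. The ratio of means was 1.90 and the log2 difference of RA minus Ro 1.14 (SE 0.44, adjusted p = 0.999 in limma over 6 arrays), and it ran from 0.75 to 1.56 over the 23 settings.

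Tgm2, encoding tissue transglutaminase, a cross-linking enzyme and a known target of retinoic acid in many cells, was set apart by 1 array. Its leading probe set had a signal of 1857 on Control replicate 2, 47.4 on the other Control array, 59.8 and 72.2 in RA, and lowest in Ro at 31.8 and 35.6. The value of Control replicate 2 was 25.7 times the next highest array, and on the 4 other tested probe sets that factor ran from 7.10 to 43.2. On the remaining probe set every signal was under 6, below the filter. The RA arrays were above the Ro arrays on 4 of the 5 tested probe sets, against 6.83% of all probe sets tested, and overlapped them on 1. On 1 of these 4 the margin was 39.18 in RA against 39.04 in Ro. There the groups overlapped once array medians were removed (-0.775 in RA against -0.731 in Ro). The leading probe set gave a ratio of 1.96 and a log2 difference of RA minus Ro of 1.12, whose SE was 1.42 over 6 arrays and 0.31 over the 4 arrays (adjusted p = 0.666 in limma over the 4 arrays).

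**Figure D2:**
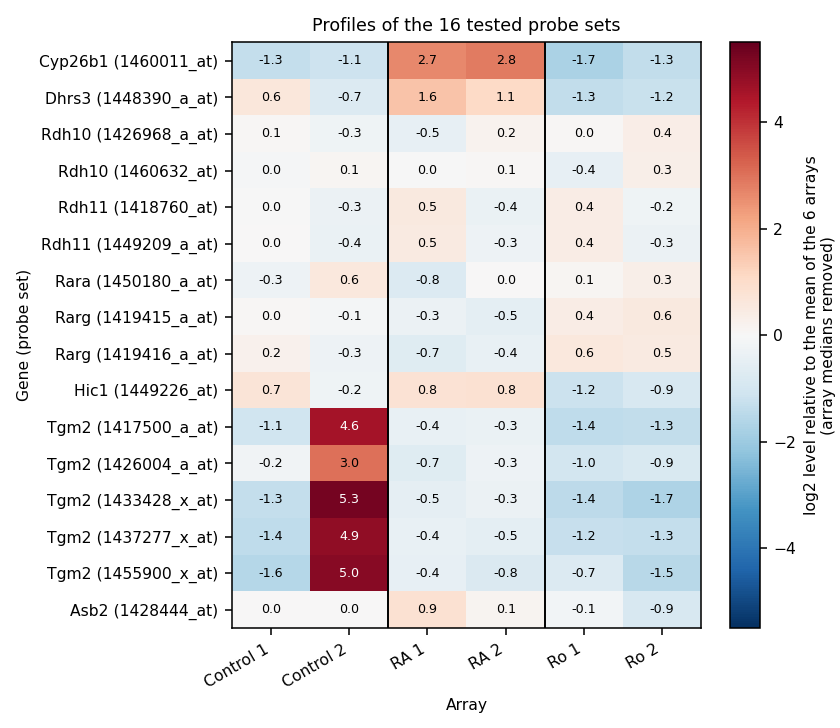
Profiles of the 16 tested probe sets over the 6 arrays, as log2(signal + 2.999) with the array medians removed and relative to the mean of the 6 arrays; colours and the printed figures show the same values. The 5 probe sets of Tgm2 are high on Control replicate 2 together, and the 2 probe sets of Rarg and of Rdh11 give like rows.

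For RA minus Ro, limma over all 6 arrays called 0 of the 9 genes and 0% of all 29507 probe sets tested. At an unadjusted p under 0.05 it found 4 of the 9 (Cyp26b1, Dhrs3, Hic1 and Rarg) and 1.68% of all probe sets, 496 in number (0.441% higher and 1.24% lower in RA). In the 4-array fit 6 of the 9 had such a p, with Tgm2 and Asb2 added, against 7.28% of all. A difference of at least 2-fold without overlap, a criterion with no test, was met by 4 of the 9, against 6.01% of all probe sets tested. Cyp26b1, Dhrs3 and Hic1 were higher in RA (1.89% of all) and Rarg lower (4.12% of all). With each array centred on its median 5 of the 9 met it, all higher in RA, since Tgm2 and Asb2 came in and Rarg dropped out, against 5.6% of all (3.18% higher and 2.42% lower). RA and Ro arrays did not overlap for 7 of the 9, against 40.7% of all probe sets. Higher in RA were 5 of these (6.83% of all) and lower 2, Rara and Rarg (33.9% of all). After centring, the shares of all probe sets were 34.4%, 16% and 18.4% in the same order. The median log2 difference of the 9 was 1.12, that of all 12986 genes tested -0.03. Cyp26b1 entered these counts through its RA arrays. The 9 genes were chosen with earlier results of these arrays known, so these counts are not independent evidence of a direction. Groups of 2 arrays allow an exact permutation test of a single gene no p under 0.333.

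**Figure D3:**
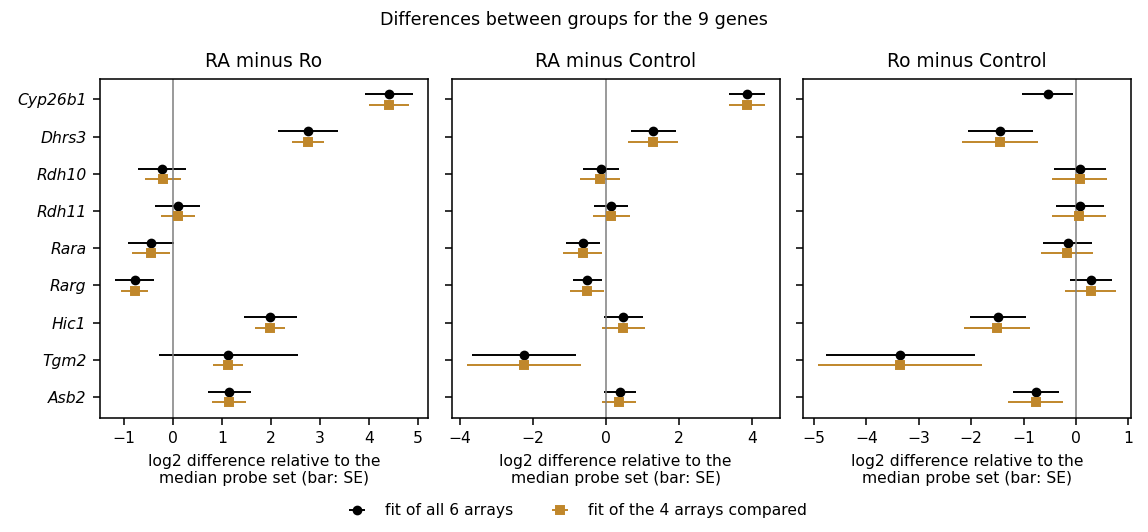
Log2 differences of the 9 genes for each pair of groups, relative to the median probe set, with bars of 1 SE, from limma over all 6 arrays (black circles) and over the 4 arrays compared (brown squares). For RA minus Ro the bars shrink when the Control arrays are left out, for Tgm2 from 1.42 to 0.31; Cyp26b1 has no 4-array value for Ro minus Control because it was below the filter there.

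RA was also compared with Control. This uses the same RA arrays as above, and the Control arrays were unlike each other for Dhrs3, Hic1 and Tgm2. Where 1 Control array is left out below, Control is a single array assumed to vary like the other groups. Without replicate 1 that array is Control replicate 2, which stood apart, and limma then called 4405 probe sets for RA minus Control and 7228 for Ro minus Control. Cyp26b1 entered this comparison too through its RA arrays alone, so its p is a description and no independent support. The log2 difference of Cyp26b1 was 3.85 (SE 0.49), with an unadjusted p of 7.13e-05 and an adjusted p of 0.493 in limma over 6 arrays. It stayed between 2.30 and 4.33 over the 23 settings. That of Dhrs3 was 1.29 (SE 0.62), 1.95 without Control replicate 1, where it passed in limma (adjusted p = 0.0112), and 0.66 without Control replicate 2. That of Hic1 was 0.47 (SE 0.54), 0.92 and 0.04 in the same order. For Tgm2 the log2 difference of -2.24 (SE 1.42) became -5.11 without Control replicate 1, where limma called it (adjusted p = 4.42e-04), and turned to 0.64 without Control replicate 2. Rarg stood at -0.51 (SE 0.40), Rara at -0.64 (SE 0.47; from -1.10 without Control replicate 1 to -0.16 without Control replicate 2), Asb2 at 0.37 (SE 0.44; 0.03 without RA replicate 1 and 0.69 without RA replicate 2), Rdh10 at -0.15 (SE 0.49) and Rdh11 at 0.14 (SE 0.46).

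In limma over 6 arrays 0 of the 9 genes and 0% of all probe sets passed between RA and Control, and 1 of the 9 (Cyp26b1) and 1.81% of all, 535 in number, had an unadjusted p under 0.05. Cyp26b1 entered this count and the 2-fold counts that follow through its RA arrays alone, so its place in them is a description. Cyp26b1 and Dhrs3 met the 2-fold criterion without overlap, 2 of the 9 against 7.24% of all (3.07% higher and 4.17% lower). Without Control replicate 2 Cyp26b1 alone of the 9 met it, against 843 higher and 1781 lower of all 29507 probe sets. Without Control replicate 1 Hic1 and Tgm2 met it as well, against 7925 higher and 2540 lower of all.

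Between Ro and Control, no gene of the 9 passed in limma over 6 arrays, 0% of all probe sets passed, and 0 of the 9 and 4.07% of all (1201 probe sets) had an unadjusted p under 0.05. Dhrs3, Hic1 and Tgm2 were lower in Ro at least 2-fold without overlap, 3 of the 9 against 9.88% of all (6.18% higher and 3.7% lower). With arrays centred these 3 still met it, against 10.2% of all (3.56% higher and 6.62% lower). Without Control replicate 1 Tgm2 alone of the 9 met it, against 10413 higher and 2127 lower of all 29507 probe sets. Without Control replicate 2 only Dhrs3 and Hic1 did, against 1160 higher and 1737 lower of all. The log2 difference was -1.44 (SE 0.62) for Dhrs3 and -1.49 (SE 0.54) for Hic1. Without Control replicate 1 these were -0.77 and -1.03, and without Control replicate 2 they were -2.12 and -1.96. That of Tgm2 was -3.35 (SE 1.42), -6.20 without Control replicate 1, where limma called it (adjusted p = 1.80e-04), and -0.50 without Control replicate 2. Cyp26b1 was at -0.54 (SE 0.49), with all 4 arrays below the filter level, and Rarg at 0.29 (SE 0.40).

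Of 40 other genes of retinoid transport, metabolism and response, 36 were on the array and 17 passed the filter. For RA minus Ro, 11 of the 17 lay above and 6 below the median probe set with a list median of 0.19, and 0 were called in limma over 6 arrays or, of the 16 tested there, over the 4 arrays. At an unadjusted p under 0.05 there was 1 of 17 over 6 arrays (against 1.68% of all probe sets) and 1 of 16 over the 4 arrays (against 7.28%). The first was Adh4, which encodes an alcohol dehydrogenase able to oxidise retinol and was not tested in the 4-array fit, and the second Nrip1. Adh4 was dim, with 1.96 and 1.61 in RA, 16.3 and 7.12 in Ro and 19.6 and 16.03 in Control, and its log2 difference of RA minus Ro was -1.33 (SE 0.55). Both RA arrays and Ro replicate 2 were below the filter level of their array. Adh4 thus entered the test only through arrays where it was high, and its p against RA is a description. For RA minus Control 7 of the 17 lay above the median and for Ro minus Control also 7, with 0 called in limma over 6 arrays and 2 at an unadjusted p under 0.05 in each (Adh4 and Dgat1 for RA, against 1.81% of all probe sets; Dgat1 and Fabp5 for Ro, against 4.07%).

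Nrip1 encodes a corepressor of nuclear receptors that retinoic acid is known to induce. Its signal was 1150 and 1123 in RA, 443 and 652 in Ro and 1291 and 473 in Control. Control replicate 1 was above both RA arrays, and Control replicate 2 lay between the Ro arrays. The ratio of RA to Ro means was 2.07 and the log2 difference 1.29 (SE 0.50, adjusted p = 0.999 in limma over 6 arrays and 0.567 over the 4 arrays). All 6 probe sets of Nrip1 gave a log2 difference above 0, from 0.68 to 1.89, and on 5 of them the RA and Ro arrays did not overlap.

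Stra6, the cell surface receptor for retinol-binding protein, stood at 11.8 and 12.4 in RA and 14.2 and 2.68 in Ro, so the arrays overlapped. Fabp5, which encodes a lipid-binding protein that can carry retinoic acid, had 470 and 360 in RA, 330 and 270 in Ro and 442 and 3631 in Control. Crabp2, which encodes a carrier of retinoic acid to its receptors and was picked after its values were seen, had 119 on Control replicate 2 and between 1.17 and 10.9 on the other 5 arrays. Control replicate 2 was thus the high array for Fabp5 and Crabp2 as for Tgm2. The partner receptors Rxra and Rxrb had log2 differences of RA minus Ro of -0.39 (SE 0.47) and -0.09 (SE 0.32), and the signal of Rxra was 63.2 and 69.0 in RA and 140 and 73.5 in Ro.

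**Figure D4:**
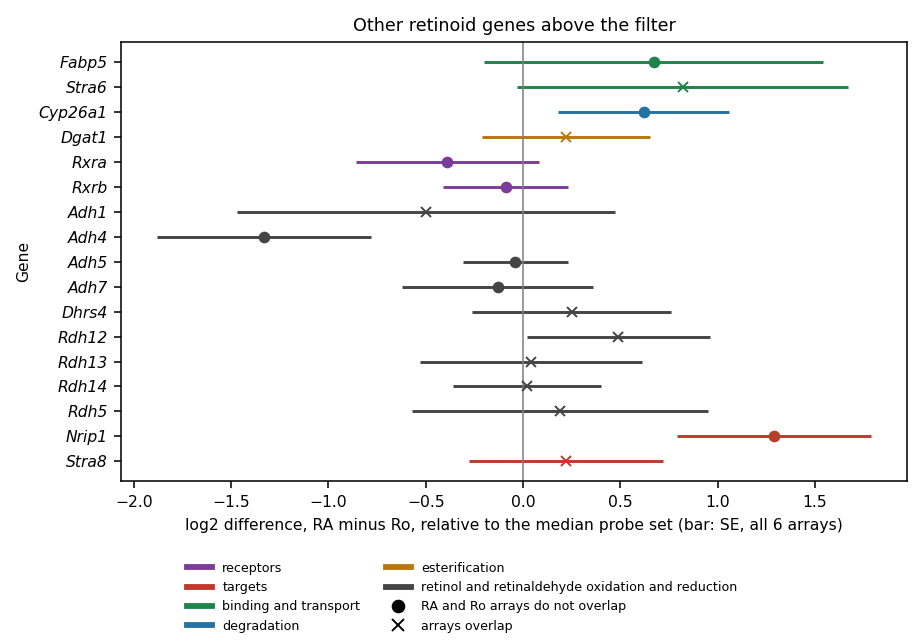
Log2 difference of RA minus Ro, relative to the median probe set, with bars of 1 SE from limma over all 6 arrays, for the 17 other retinoid genes above the filter, coloured by role; circles mark genes whose RA and Ro arrays do not overlap. Nrip1 stands at 1.29 and Adh4 at -1.33, and the remaining 15 genes lie between -0.50 and 0.82.

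The genes with the nearest profiles were looked up for Cyp26b1, Dhrs3 and Rarg among the other tested genes, by the root mean square difference of log2 levels over the 6 arrays after removal of array medians and gene means. This is a description of 6 arrays, and gene pairs with shallow profiles get small distances. Nearest to Cyp26b1 were Ccr9 (0.965), Grtp1, Klhl1, Eya2 and Sorcs2 (1.17). Klhl1, at 10.45 and 12.96 in RA and 2.12 or less elsewhere, was above the filter level on the RA arrays alone. It was thus a candidate only through the arrays where it was high. Ccr9, a homing receptor of gut T cells, had 509 and 398 in RA, 5.76 and 8.93 in Ro and 20.9 and 1.09 in Control. Eya2, which encodes a transcriptional coactivator, had 91.6 and 79.4 in RA, 23.0 and 17.7 in Ro and 35.8 and 8.77 in Control.

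Nearest to Dhrs3 were Sorcs2 (0.327), Smim10l2a, Steap3, Mcam and Fcrl1 (0.470). Smim10l2a, at 19.6 and 18.3 in RA and 11.3 or less elsewhere, was like Klhl1 a candidate through the RA arrays alone. Sorcs2, which encodes a sorting receptor, had 120 and 104 in RA, 24.3 and 28.6 in Ro and 63.1 and 25.8 in Control, so that Control replicate 2 again stood with the Ro arrays. Nearest to Rarg were Ctss (0.0718), Dmxl1, Pld3, Zfp52 and Pla2g4a (0.121). Ctss, encoding the lysosomal protease cathepsin S, had 1703 and 1864 in RA, 3094 and 3507 in Ro and 2867 and 1893 in Control. The RA arrays of Ctss were, as for Rarg, below all others, and Control replicate 2 was close to them.

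**Figure D5:**
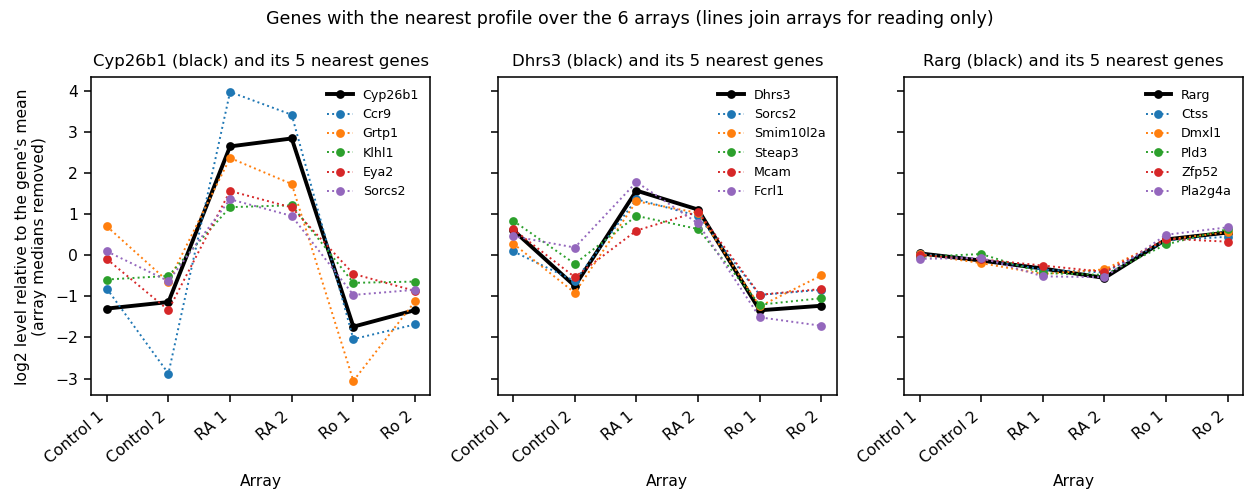
Log2 level on each array relative to the mean of the gene, with array medians removed, for Cyp26b1, Dhrs3 and Rarg (black) and the 5 genes nearest to each (dotted); lines join arrays for reading and mark no order. The genes near Cyp26b1 and Dhrs3 are high on both RA arrays, and those near Rarg are low there and high on the Ro arrays. Near Dhrs3, the levels of Steap3 and Mcam on Control replicate 1 (0.845 and 0.638) lie between those of their RA arrays.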

How the data were processed

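RNA (2 ug of total RNA per array, amplified once and labelled with biotin, per the labels) was measured on 6 arrays. The authors deposited 1 linear intensity per probe set. MAS5 is the tool that the submitters' processing notes list; its version and scaling target were not known, and detection calls were not used here. Array medians ran from 16.3 to 23.8. Groups and replicate numbers come from titles, where RO and Ro were taken as 1 group. The labels do not tell whether replicates came from different animals, so the spread behind each p-value may be technical.

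Symbols come from GEO's platform annotation, and a check through Entrez IDs changed 0 of the members. Control probe sets (64) were left out. Probe sets above the 40th percentile of their array on at least 2 arrays were tested (29507), which kept 16 of the members' 17 probe sets and all 9 genes. limma 3.58.1 in R 4.3.3 (lmFit, eBayes with an intensity trend) was fitted to log2(signal + 2.999), the pseudocount being the 20th percentile of all values, with Benjamini-Hochberg adjustment over all tested probe sets, a threshold of 0.05 and tests in both directions. It was tested on simulated data. Each gene was read from the brightest of its tested probe sets (by mean log2(signal + 2.999) over the arrays), leaving out _x_at and _s_at sets where another exists. All members were named. Of the 40 other retinoid genes the 4 with the largest difference between RA and Ro were named, and the 5 nearest genes for 3 members; Crabp2, Rarb, Cyp26a1, Rxra, Rxrb and Dgat1 were named in addition, after their values were seen. Members, lists and tests were chosen with earlier results of these data known. Alternatives were other pseudocounts, quantile normalization, other filters, no trend, a replicate block, 4-array fits, gene means and leaving out each array; combinations with the 4-array fit were added after seeing the data. Promoters come from RefSeq (GRCm38.p6).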

Additional observations from a re-analysis of the deposited data

How the results depend on the processing

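With 2 arrays a group, each value rests on few arrays, and dim signals limit the size of ratios, that of Cyp26b1 above all. In limma over all 6 arrays 0 probe sets and 0 members passed in each comparison, also with other pseudocounts, quantile normalization, other filters, no intensity trend or the replicate block. The 4-array fit called 12 probe sets and 1 member between RA and Ro, 9 and 1 with quantile normalization, and 106 and 3 (Cyp26b1, Dhrs3 and Hic1) with the replicate block, and 0 without a trend; with Control the 4-array fits called 0, but with the block 56 probe sets and 1 member for RA and 93 and 1 for Ro. The labels do not tell whether arrays of equal replicate number share anything. Deviations of equal numbers correlated at 0.249 between RA and Ro, 0.00477 between RA and Control and -0.029 between Ro and Control, and the cause was not tested.

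Without 1 array at a time, limma called 0 to 13 probe sets and 0 to 1 members for RA minus Ro, 0 to 4405 and 0 to 3 for RA minus Control, and 0 to 7228 and 0 to 1 for Ro minus Control in the 6-array fit. In the 4-array fit these were 0 to 891 (498 without Ro replicate 2, 891 without Ro replicate 1) and 0 to 3, 1 to 8091 (53 without Control replicate 2) and 0 to 4, and 0 to 4924 and 0 to 1. The highest counts against Control came without Control replicate 1. Members past the 2-fold criterion then numbered 4 to 6, 1 to 4 and 1 to 4. Of all 29507 probe sets, 907 to 1556 met it as higher and 1541 to 3554 as lower for RA minus Ro. These were 843 to 7925 and 1781 to 2540 for RA minus Control, and 1160 to 10413 and 1737 to 2265 for Ro minus Control. The direction turned without 1 array for Rdh10 (-0.59 to 0.15 for RA minus Ro, -0.52 to 0.20 for RA minus Control, -0.08 to 0.23 for Ro minus Control), Rdh11 (-0.33 to 0.52, -0.30 to 0.57 and -0.27 to 0.39), Rara for Ro minus Control (-0.61 to 0.27) and Tgm2 for RA minus Control (-5.11 to 0.64) in the 6-array fit. In the 4-array fit Rdh10 ran from -0.58 to 0.15, -0.53 to 0.19 and -0.09 to 0.22, Rdh11 from -0.33 to 0.52 (-0.23 without Ro replicate 2), -0.31 to 0.56 and -0.28 to 0.38 (-0.08 without Control replicate 2), Rara from -0.63 to 0.27 and Tgm2 from -5.12 to 0.65. For Ro minus Control, Rdh10 also turned to -0.03 with a filter at the 60th percentile, -0.11 as the mean of its probe sets and -0.00013 with quantile normalization of the 4 arrays, and Rdh11 to -0.04 with that filter and -0.10 with quantile normalization of 6 or of 4 arrays; the cause was not tested. Cyp26b1, Dhrs3, Hic1, Rarg and Asb2 kept their direction in all settings run for each comparison, as did Rara and Tgm2 for RA minus Ro. Cyp26b1 has no value in the 4-array fits of Ro and Control, where it was below the filter.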
